A study of Mus musculus with 11 samples.

Results

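Axon injury and regeneration genes were examined in sorted sensory neurons of the mouse trigeminal ganglion, which supplies the face and mouth. The 35 genes are a list of names known from nerve injury work, and all 35 were found among the 55401 genes of the deposited tables. The rule takes genes by name, with no threshold on a value, and the list was drawn up with earlier results of these data known. The libraries hold polyadenylated RNA of neurons from the ganglia of both sides that carried the retrograde tracer DiI and were sorted by fluorescence. Mice either bore tumours of MOC1, a line of mouse oral carcinoma cells, or were sham controls. There were 6 MOC1 libraries, 3 of each sex, and 5 sham libraries, 3 from females and 2 from males. All groups, sham included, carried the DiI label and went through dissociation and sorting. Strain, age and time after implantation are not given in the sources used here, and the labels do not say whether a library came from 1 mouse or from pooled mice. If libraries of a group were not from separate mice, the p-values measure only the spread between these samples.

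When a peripheral axon is cut or crushed, the neuron switches on a set of transcription factors, led by Atf3, Jun and Sox11, that change its gene expression from transmission to regrowth. Cytokines of the interleukin-6 family act through the receptor chains gp130 and Lifr on Stat3, and Socs3 is the feedback inhibitor of that pathway. Later products include growth cone proteins such as Gap43 and Sprr1a and peptides such as Gal, Npy and Vip, which are scarce in intact sensory neurons or confined to few of them. Several of the factors, Jun, Atf3, Klf6 and Socs3 among them, are also quickly induced by many kinds of stress in other cell types.

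Libraries held between 10757426 and 16703797 counts in genes. Satellite glia ensheathe the neuron bodies of the ganglion, and their markers differed between the arms. The 16 satellite glia genes summed to between 3733 and 6514 CPM (counts scaled to a common library total) in MOC1 libraries and between 9609 and 11738 CPM in sham libraries, and 12 of the 16 fell in MOC1. The 17 immediate-early genes, a group that cells induce within minutes of stimulation, summed to between 1102 and 1694 CPM in MOC1 and between 3202 and 5144 CPM in sham. The 20 pan-neuronal genes summed to between 15043 and 15955 CPM in MOC1 and between 11790 and 13962 CPM in sham. Squamous keratinocyte markers were near the floor in both arms (2.40 to 10.3 CPM over 9 markers in MOC1, 4.52 to 7.43 in sham), and Krt5 was at 0 in every library. Schwann cell and myelin markers (12) summed to 848 to 1002 CPM in MOC1 and 1113 to 1438 CPM in sham, and fibroblast markers (7) to 59.8 to 71.8 and 90.2 to 179 CPM. The 14 macrophage markers summed to 10.9 to 40.4 CPM in MOC1 and 17.6 to 64.6 CPM in sham. Sham female 1 stood apart in endothelial and mural markers (1565 CPM, against at most 428 in any other library) and in neutrophil and lymphocyte markers (51.2 CPM over 8 genes, against at most 5.93). It also held the highest macrophage sum (64.6 CPM), and the other 4 sham libraries held 17.6 to 26.5 CPM. MOC1 female 3 and MOC1 male 2 detected the fewest genes (14180 and 15327, against 16043 or more in the others). In bulk libraries of this kind, fewer cells of a type and less RNA per cell cannot be told apart.

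**Figure D1:**
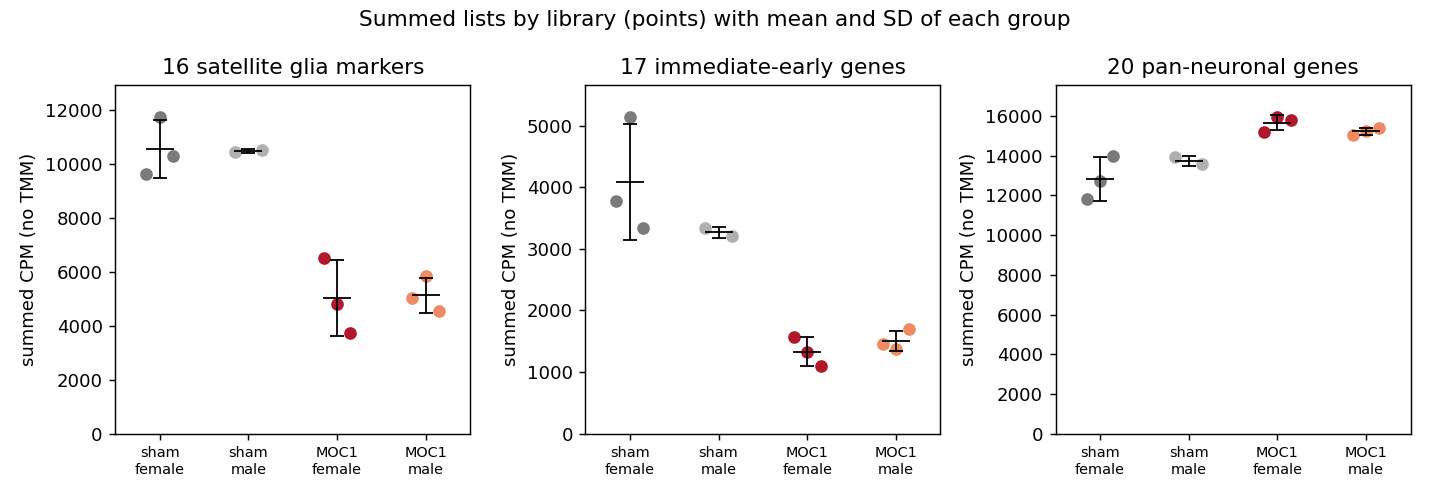
Summed CPM of 3 gene lists in each library (y axis, not TMM-scaled) by group (x axis). Points are libraries, and bars give mean and SD. For satellite glia and immediate-early genes every MOC1 library lies below every sham library, and for pan-neuronal genes every MOC1 library lies above.

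The question put to the list was whether the injury program differs in the sorted neurons of tumour-bearing mice. Of the 35 genes, 28 passed the low-count filter and were tested. Jun, Atf3, Klf6 and Socs3 fell in MOC1 libraries, each to between 0.431 and 0.498 of its sham level, and Stat3 rose 1.23-fold. The other 23 tested genes, among them the regeneration markers Sprr1a, Gap43, Gal and Sox11, did not pass the test. Over all 16817 genes tested, 6.62% were called, 2.34% higher and 4.28% lower in MOC1. The median log2 change was -0.19 over the 28 genes and -0.03 over all genes. All 5 called genes belong to the 7 transcription and signalling genes of the list. None of the tested secreted factors (3), receptors and surface proteins (7), growth and cytoskeletal genes (7) or stress genes and enzymes (4) was called. A gene was called at an adjusted p under 0.05 in edgeR's quasi-likelihood test with sex as a term. The levels below are CPM after TMM scaling, a scaling that balances libraries on genes that change little.

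**Figure D2:**
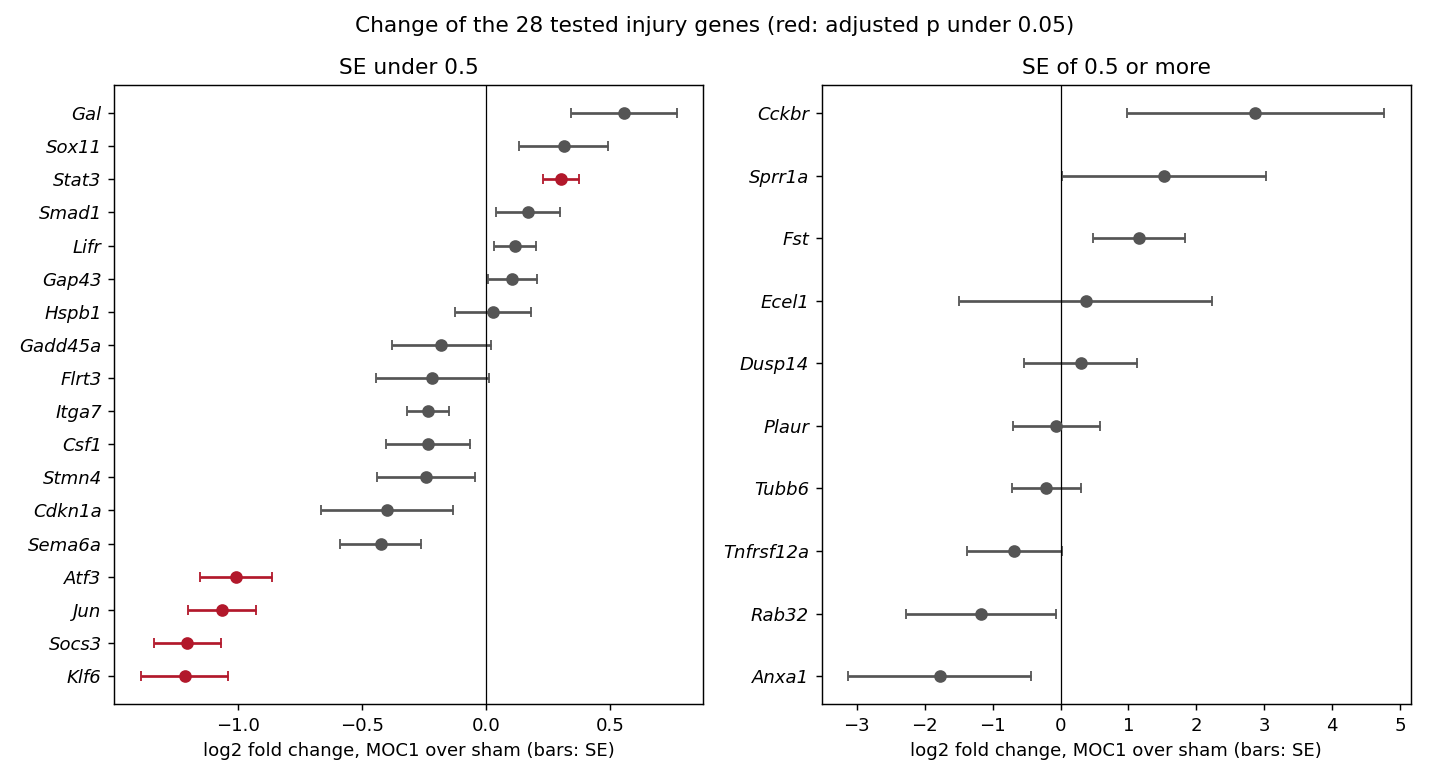
Log2 fold change of MOC1 over sham for the 28 tested genes (x axis, bars are SE), split into 18 genes with an SE under 0.5 (left) and 10 with a larger one (right). Jun, Atf3, Klf6 and Socs3 lie near or below -1, Stat3 lies at 0.30, and by the split every SE on the right is 0.5 or more.

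Jun encodes a subunit of the AP-1 transcription factor and is needed for efficient axon regrowth. Sham female libraries held 770, 1113 and 710 CPM of Jun, and sham male libraries 709 and 677 CPM. MOC1 female libraries held 429, 333 and 267 CPM, and MOC1 male libraries 411, 422 and 429 CPM. Every MOC1 library lay below every sham library, and sham female 2 was the highest. The means were 382 ± 67.0 CPM (SD, n = 6) for MOC1 against 796 ± 181 CPM (SD, n = 5) for sham. The log2 change was -1.06 (SE 0.14, adjusted p = 5.31e-05).

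Atf3, a factor with a basic leucine zipper that is a standard marker of injured sensory neurons, showed the same separation. Sham libraries held 132, 149 and 110 CPM in females and 123 and 87.8 CPM in males. MOC1 libraries held 42.9, 55.6 and 60.4 CPM in females and 63.7, 63.4 and 76.2 CPM in males. The arms did not overlap, with the narrowest gap between MOC1 male 3 and sham male 3. Means were 60.4 ± 11.0 CPM (SD, n = 6) for MOC1 against 120 ± 23.0 CPM (SD, n = 5) for sham, a log2 change of -1.01 (SE 0.14, adjusted p = 1.62e-04).

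Klf6 is a zinc finger factor of the Krüppel-like family that promotes axon growth. It stood at 268, 445 and 287 CPM in sham females and at 173 and 184 CPM in sham males. In MOC1 it stood at 118, 92.8 and 102 CPM in females and at 106, 111 and 134 CPM in males. Female sham libraries were the highest, and no MOC1 library reached the lowest sham library. Klf6 fell by 1.21 on the log2 scale (SE 0.18, adjusted p = 1.85e-04).

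Socs3, the inhibitor of cytokine signalling through Stat3, stood at 201, 314 and 221 CPM in sham females and at 207 and 190 CPM in sham males. In MOC1 libraries it stood at 106, 67.9 and 109 CPM in females and at 110, 98.0 and 93.5 CPM in males. Again the arms did not overlap. Socs3 fell by 1.20 (SE 0.13, adjusted p = 1.55e-05). Over all genes tested, MOC1 libraries lay below sham libraries without overlap for 4.18% and above for 2.15%.

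Stat3, the transcription factor that Socs3 restrains, moved the other way and by less. It stood at 505, 482 and 426 CPM in sham females and 494 and 483 CPM in sham males. MOC1 libraries held 536, 530 and 660 CPM in females and 647, 584 and 598 CPM in males. The lowest MOC1 library (530 CPM) lay just above the highest sham library (505 CPM). Stat3 rose by 0.30 on the log2 scale (SE 0.07, adjusted p = 0.0151). It was no longer called without sham male 3 (log2 0.29, adjusted p = 0.0510) or with libraries scaled to the pan-neuronal list (log2 0.05, adjusted p = 0.801).

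**Figure D3:**
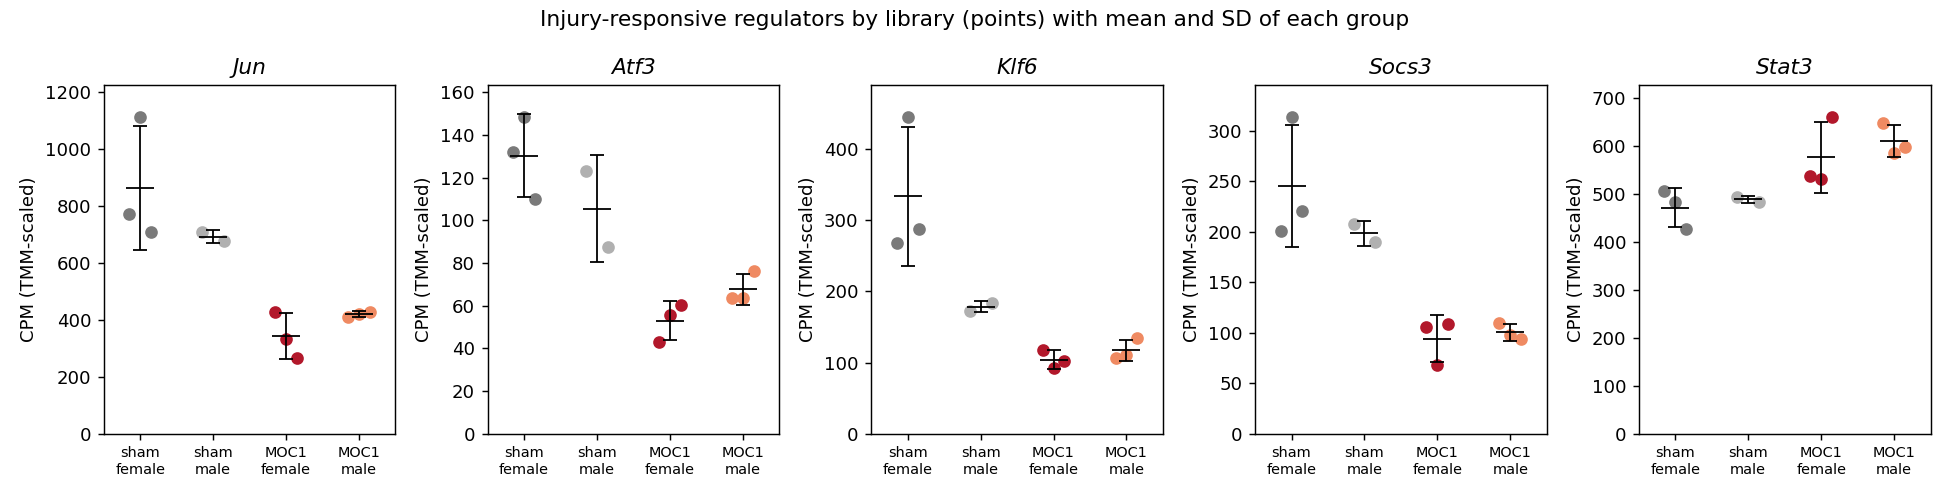
CPM after TMM scaling (y axis) of the 5 called genes in each library, by group (x axis). Points are libraries, and bars give mean and SD. For Jun, Atf3, Klf6 and Socs3 all 6 MOC1 libraries lie below all 5 sham libraries, and for Stat3 they lie above.

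Between the arms, these changes went with the glial and immediate-early sums. The log2 changes of Jun, Atf3, Klf6 and Socs3 (-1.01 to -1.21) were close to the median of the satellite glia markers (-1.06) and of the immediate-early genes (-1.31), and Stat3 (0.30) was close to the median of the pan-neuronal genes (0.28). Scaled to the pan-neuronal list, the 4 genes were still lower in MOC1 and called (log2 -1.27 to -1.47). Scaled to the satellite glia list, which moved the median of all genes to 1.04, Jun stood at -0.01, Klf6 at -0.13, Socs3 at -0.12 and Atf3 at 0.09, and none of the 4 was called. With the log2 glial sum as a further term, no gene of the list and no gene at all was called by edgeR. There 4 genes of the list (Atf3, Socs3, Cckbr and Flrt3) and 1201 of all genes had an unadjusted p under 0.05. The log2 change of Atf3 stood at -1.42 (adjusted p = 0.592) and that of Jun at -0.10 (adjusted p = 0.957). Klf6 and Socs3 lay with Atf3 below the median of the 7 transcription and signalling genes (-0.38), and Jun lay above it. Neither the glial nor the immediate-early sum overlaps between the arms. The part of either in these changes and that of the tumour cannot be told apart. Sham female 2, the highest library for Jun, Atf3, Klf6 and Socs3, also had the highest glial sum (11738 CPM) and the highest immediate-early sum (5144 CPM). Within the arms the 4 genes did not all follow the glial sum in the other libraries. MOC1 female 1 had the highest glial sum of its arm (6514 CPM), the highest Jun (429 CPM) and the lowest Atf3 (42.9 CPM). MOC1 female 3 had the lowest glial sum (3733 CPM) and the lowest Jun (267 CPM) of its arm. MOC1 male 3, with a glial sum of 4534 CPM, also held 429 CPM of Jun. It had the highest Atf3 (76.2 CPM), Klf6 (134 CPM) and immediate-early sum (1694 CPM) of its arm. Sham female 1 had the lowest glial sum of the sham libraries (9609 CPM) and 132 CPM of Atf3, exceeded only in sham female 2. Over the sham libraries Jun kept the order of the immediate-early sum, down to sham male 3 (677 CPM of Jun, sum 3202 CPM). Atf3, Klf6 and Socs3 did not keep that order. In MOC1, female 3 was lowest for both Jun and the immediate-early sum (1102 CPM). MOC1 female 1, lowest for Atf3, had an immediate-early sum of 1570 CPM, exceeded only in MOC1 male 3. These orders were not tested. Without sham female 1, MOC1 female 3 and MOC1 male 2 together, the same 4 genes were lower and Stat3 higher (Jun log2 -0.99, Atf3 -0.98, Klf6 -1.18, Socs3 -1.29, Stat3 0.29).

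The promoters of Jun, Atf3 and Klf6, which fell in MOC1, are shown. That of Socs3, which fell with them, held none of the site forms marked in capitals below and is not shown. The stretches are the 250 bases before the RefSeq transcription start (GRCm38.p6), written 5′ to 3′ on the strand of the gene. They lie at chr4:95052223-95052472 (minus strand) for Jun, at chr13:5861239-5861488 (plus strand) for Klf6 and at chr1:191183334-191183583 (minus strand) for Atf3. The Atf3 start lies inside the gene as the files place it (chromosome 1, 191170296 to 191218039), and 7 bases of the Klf6 stretch and 7 of the Atf3 stretch are annotated as exon in GENCODE M21. Capitals mark matches to TGACATCA, or to TGACGTNA, on either strand, the site forms of leucine zipper factors of the Jun and Atf family.
Jun: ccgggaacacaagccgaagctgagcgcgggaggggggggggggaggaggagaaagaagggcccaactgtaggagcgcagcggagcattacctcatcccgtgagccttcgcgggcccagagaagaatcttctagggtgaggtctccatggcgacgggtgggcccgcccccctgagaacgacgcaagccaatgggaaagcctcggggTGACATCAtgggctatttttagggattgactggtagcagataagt
Klf6: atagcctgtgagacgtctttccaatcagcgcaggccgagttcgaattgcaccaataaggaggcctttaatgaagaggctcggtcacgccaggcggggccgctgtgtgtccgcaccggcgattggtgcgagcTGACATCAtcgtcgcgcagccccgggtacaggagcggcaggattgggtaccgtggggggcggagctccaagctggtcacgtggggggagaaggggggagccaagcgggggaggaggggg
Atf3: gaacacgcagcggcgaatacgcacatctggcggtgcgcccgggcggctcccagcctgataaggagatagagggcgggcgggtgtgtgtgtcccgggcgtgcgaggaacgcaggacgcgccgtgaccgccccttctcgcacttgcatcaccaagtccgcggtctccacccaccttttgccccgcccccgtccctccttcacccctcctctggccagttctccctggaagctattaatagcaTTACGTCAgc

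With positions counted from the transcription start, the letters TGACATCA begin at -45 in Jun and at -119 in Klf6. In all, 26 of the 35 genes had 28 promoter windows of 300 bases (250 before to 50 after a start), and 6 of those windows (21.4%) held TGACATCA, against 3.62% of all 32851 windows. The other 4 belong to Flrt3, Rab32, Sox11 and Sprr1a, none of which was called. Atf3 held TTACGTCA from position -10. Read on the other strand it is a match to TGACGTNA, a form added after the sequence had been read, which 2.93% of all windows held. The full form TGACGTCA, which TGACGTNA includes, was found in the window of Ucn among the 28 and in 1.79% of all windows. The AP-1 form TGANTCA was found for Plaur and Sprr1a (7.81% of all windows). The form TTCNNNGAA, which STAT factors bind, was found for Dusp14, Reg3b and Socs3, in Socs3 as TTCTTAGAA from position -154 (8.30% of all windows). The CArG box was found in none of the 28 windows (1.63% of all windows). A match is a description of letters and was not tested as a binding site.

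The other 2 transcription and signalling genes did not pass. Sox11, a factor that drives neuron growth programs, held 23.0, 20.8 and 16.4 CPM in sham females and 44.5 and 27.4 CPM in sham males. It held 27.8, 33.2 and 31.5 CPM in MOC1 females and 37.8, 34.4 and 31.5 CPM in MOC1 males. Sham female libraries were thus the lowest of the 11 and sham male 1 the highest (log2 0.31, SE 0.18, adjusted p = 0.388). Smad1, which carries signals of bone morphogenetic proteins (BMPs), stood at 66.0 ± 10.2 CPM (SD, n = 6) for MOC1 against 58.4 ± 8.18 CPM (SD, n = 5) for sham, with a log2 change of 0.17 (SE 0.13, adjusted p = 0.567).

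Among the 9 secreted factors only Gal, Csf1 and Fst passed the low-count filter. Gal, the precursor of the peptide galanin, held 18.7, 12.5 and 15 CPM in sham females and 15.3 and 12.9 CPM in sham males. MOC1 libraries held 17.1, 26.4 and 15.4 CPM in females and 22.8, 30.6 and 21 CPM in males, so the arms overlapped and MOC1 male 2 was the highest. The log2 change was 0.56 (SE 0.21, adjusted p = 0.148), and without the 3 libraries named above together it was 0.65 (adjusted p = 0.0476). Csf1, the growth factor of macrophages and microglia, stood at 33.1, 34.2, 32.2, 35.3, 22.9 and 27.7 CPM in MOC1 females and then males. In sham it stood at 34.4, 51.9, 34.1, 39.7 and 25.1 CPM in females and then males (log2 -0.23, SE 0.17, adjusted p = 0.538). Fst, the activin antagonist follistatin, lay between 1.72 and 6.97 CPM in MOC1 and between 0.735 and 4.21 CPM in sham (log2 1.15, SE 0.68, adjusted p = 0.409).

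The remaining secreted factors were at or near 0. Vip, a peptide precursor that rises strongly in cut sensory neurons, had 51 reads in MOC1 male 2 (3.35 CPM, exact binomial 95% interval 2.50 to 4.41, counting error only) and none in the other 10 libraries. Npy, another such peptide, had 7 reads in sham male 1 (0.445 CPM, interval 0.179 to 0.917) and none elsewhere. Crh, the stress hormone precursor, had 8 reads in 2 libraries, and Reg3b, a secreted lectin, had 2 reads in 1 library. Il24, a cytokine, and Ucn, a peptide related to Crh, had no read in any library, which allows up to between 0.177 and 0.278 CPM in each (3 counts). No fold change is given for these 6 genes, which were not tested.

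The 7 receptor and surface genes were all tested and none was called. Lifr, the receptor chain that feeds Stat3, held 1219, 917 and 890 CPM in sham females and 1053 and 1127 CPM in sham males. It held 1035, 1051 and 1287 CPM in MOC1 females and 1241, 1098 and 1084 CPM in MOC1 males. The arms overlapped, with means of 1133 ± 105 CPM (SD, n = 6) for MOC1 against 1041 ± 139 CPM (SD, n = 5) for sham and a log2 change of 0.12 (SE 0.09, adjusted p = 0.541). Itga7, an integrin subunit that binds laminin, held 175, 186, 177, 219, 223 and 166 CPM in MOC1 females and then males. In sham it held 189, 229, 207, 249 and 233 CPM in the same order. The ranges overlapped (log2 -0.23, SE 0.08, adjusted p = 0.123).

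Sema6a, a transmembrane semaphorin that acts in axon guidance, held 36.1, 35, 30.4, 41.3 and 30.2 CPM in sham females and then males. MOC1 libraries held 27.6, 27.8 and 27.5 CPM in females and 22.4, 31.0 and 18.1 CPM in males. Only MOC1 male 2 exceeded the lowest sham library (log2 -0.42, SE 0.16, adjusted p = 0.152). Both Itga7 and Sema6a were called lower with pan-neuronal scaling (log2 -0.48 and -0.67) and with limma's voom and quality weights (log2 -0.28 and -0.55). With satellite glia scaling both were called higher (log2 0.84 and 0.63), but below the median of all genes there (1.04).

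Flrt3, an adhesion protein of growing neurites, held 39.8, 58.8 and 54.7 CPM in sham females and 47.7 and 35.4 CPM in sham males. It held 39.3, 49.5 and 16.6 CPM in MOC1 females and 47.9, 54.4 and 40.8 CPM in MOC1 males. MOC1 female 3 lay below all others, and the remaining libraries of both arms overlapped (log2 -0.22, SE 0.23, adjusted p = 0.717). The urokinase receptor Plaur (log2 -0.06, SE 0.64) and Tnfrsf12a, the receptor of the cytokine TWEAK (log2 -0.68, SE 0.70), were low in all libraries, with at most 13.4 and 12.9 CPM. The fitted sign of Plaur went against its means (8.34 CPM for MOC1, 8.26 CPM for sham). MOC1 female 3 was at 0 for Plaur and at 0.0736 CPM for Tnfrsf12a. Cckbr, a cholecystokinin receptor that appears in injured sensory neurons, had no read in 4 of 5 sham libraries and stood at 3.31 CPM in sham male 1. In MOC1 it lay between 0 and 3.55 CPM (adjusted p = 0.485).

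Growth and cytoskeletal genes gave no call. Gap43, the growth cone protein, held 148, 205 and 223 CPM in sham females and 217 and 175 CPM in sham males. It held 227, 214 and 196 CPM in MOC1 females and 187, 214 and 212 CPM in MOC1 males, so the arms overlapped (log2 0.11, SE 0.10, adjusted p = 0.666). Hspb1, a small heat shock protein that protects injured neurons, held 35, 27.5 and 28.9 CPM in sham females and 27.2 and 25.6 CPM in sham males. It held 22.8, 32.4 and 28.4 CPM in MOC1 females and 28.6, 33.4 and 30.4 CPM in MOC1 males, with both arms in 1 range (log2 0.03, SE 0.15, adjusted p = 0.959). Stmn4, a microtubule regulator of the stathmin family, stood at 18.2 ± 2.88 CPM (SD, n = 6) for MOC1 against 21.1 ± 5.82 CPM (SD, n = 5) for sham (log2 -0.24, SE 0.20).

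Sprr1a, a small proline-rich protein that is among the most strongly induced genes after axon cut, held at most 4.71 CPM. Sham females stood at 0.0612, 0 and 0 CPM and sham males at 4.71 and 2.56 CPM. MOC1 females stood at 0.557, 1.86 and 0.0736 CPM and MOC1 males at 0.901, 1.84 and 2.23 CPM. Both sham males lay above every other library. The fitted log2 change was 1.52 (SE 1.5, adjusted p = 0.686), against the direction of the means (1.24 ± 0.858 CPM for MOC1, SD, n = 6, and 1.47 ± 2.12 CPM for sham, SD, n = 5). Tubb6, a tubulin, lay between 1.42 and 16 CPM over both arms. Anxa1, a phospholipid-binding protein, and Rab32, a small GTPase, did not exceed 6.49 and 3.49 CPM. None of these 3 passed the test.

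The stress genes and enzymes also gave no call. Gadd45a, induced by DNA damage and axon injury, stood at 25.6 ± 4.95 CPM (SD, n = 6) for MOC1 against 29.8 ± 10.2 CPM (SD, n = 5) for sham (log2 -0.18, SE 0.20). Cdkn1a, the cell cycle inhibitor p21, stood at 29.4 ± 6.96 CPM (SD, n = 6) for MOC1 against 37.7 ± 20.6 CPM (SD, n = 5) for sham (log2 -0.40, SE 0.27), with its highest value, 69.4 CPM, in sham female 1. Dusp14, a phosphatase of MAP kinases, lay between 0 and 4.47 CPM. Ecel1, an endopeptidase-like protein known from damaged neurons, held 0.429, 0.241 and 0 CPM in sham females and 8.21 and 1.66 CPM in sham males. It held 0, 3.66 and 2.43 CPM in MOC1 females and 2.57, 0 and 0 CPM in MOC1 males, so sham male 1 was well above the rest. Its fitted log2 change of 0.37 (SE 1.86, adjusted p = 0.953) also went against the direction of the means (1.44 CPM for MOC1, 2.11 CPM for sham). Arg1, the arginase linked to axon growth, had 28 reads in 5 libraries and was not tested.

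**Figure D4:**
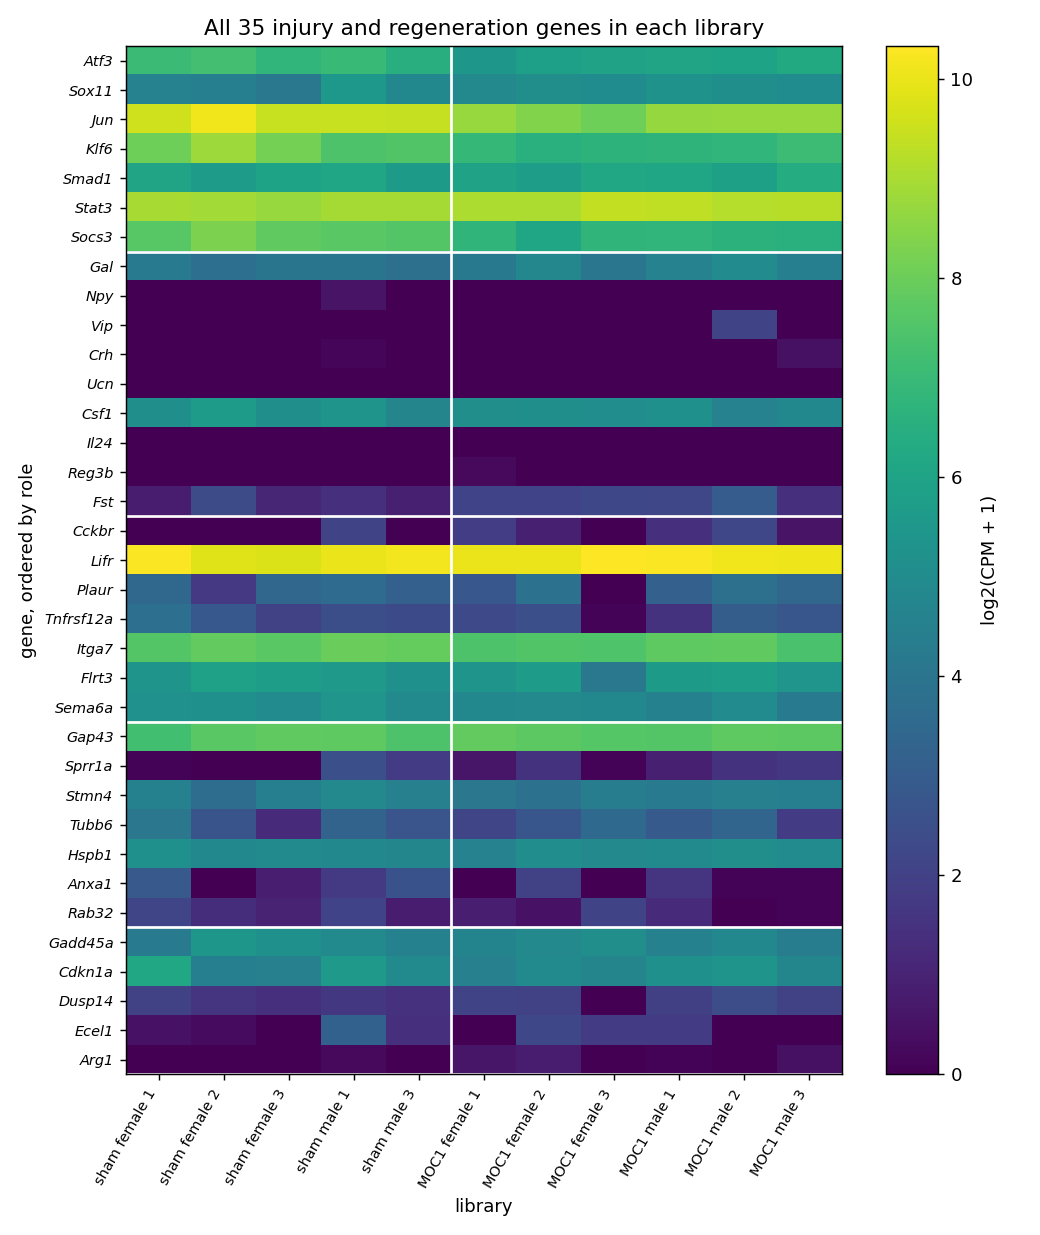
Level of all 35 genes (rows, ordered by role) in each of the 11 libraries (columns), as log2(CPM + 1). White lines part the roles and the arms. Jun, Klf6, Atf3 and Socs3 are brighter in the 5 sham libraries on the left, and Npy, Vip, Crh, Ucn, Il24, Reg3b and Arg1 are dark in nearly all libraries.

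The genes differed widely in level. Set per length, as mean CPM per kilobase of annotated exons, the highest were Jun (179), Gap43 (132) and Lifr (101), followed by Stat3 (56.7), Socs3 (54.0), Klf6 (41.8), Atf3 (40.7), Hspb1 (28.2), Itga7 (25.3) and Gal (24.0). Sox11 (3.59), Sema6a (3.39) and Sprr1a (1.67) were lower still. The called genes were all among the 7 highest of the list. A gene with few reads had a wide SE, and 10 genes had an SE of 0.5 or more.

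Both sexes were compared in a fit of the 4 groups. In females Jun, Atf3, Klf6 and Socs3 fell (4 of 28 called, all lower, against 4.48% of all genes, 1.33% higher and 3.15% lower). In males Jun and Socs3 fell (2 of 28, both lower, against 1.25% of all genes, 0.166% higher and 1.09% lower). Klf6 changed by -1.68 in females (SE 0.16, adjusted p = 4.09e-05) and by -0.61 in males (SE 0.18, adjusted p = 0.147). Atf3 changed by -1.30 (SE 0.17) in females and -0.64 (SE 0.18, adjusted p = 0.132) in males. For Jun the changes were -1.33 (SE 0.16) and -0.72 (SE 0.17, adjusted p = 0.0492, just under the threshold). For Socs3 they were -1.38 (SE 0.18) and -0.98 (SE 0.19, adjusted p = 0.0126). Stat3 stood at 0.29 (SE 0.10) and 0.32 (SE 0.11) and was called in neither sex alone. The test of the difference between the sexes called 0% of all genes in edgeR, and 708 (4.21%) had an unadjusted p under 0.05. Among the 28 genes, 5 had an unadjusted p under 0.05, namely Klf6, Atf3, Jun, Sprr1a and Cckbr. The difference (male minus female change) was 1.07 for Klf6 (SE 0.24, adjusted p = 0.913), 0.66 for Atf3 (SE 0.25) and 0.61 for Jun (SE 0.24). It went the other way for Sprr1a (-6.02, SE 2.25) and Cckbr (-6.98, SE 3.09), which held at most 4.71 and 3.55 CPM. Male groups hold 3 and 2 libraries, and the count of all genes called in males ranged from 62 to 340 as each library was left out in turn.

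**Figure D5:**
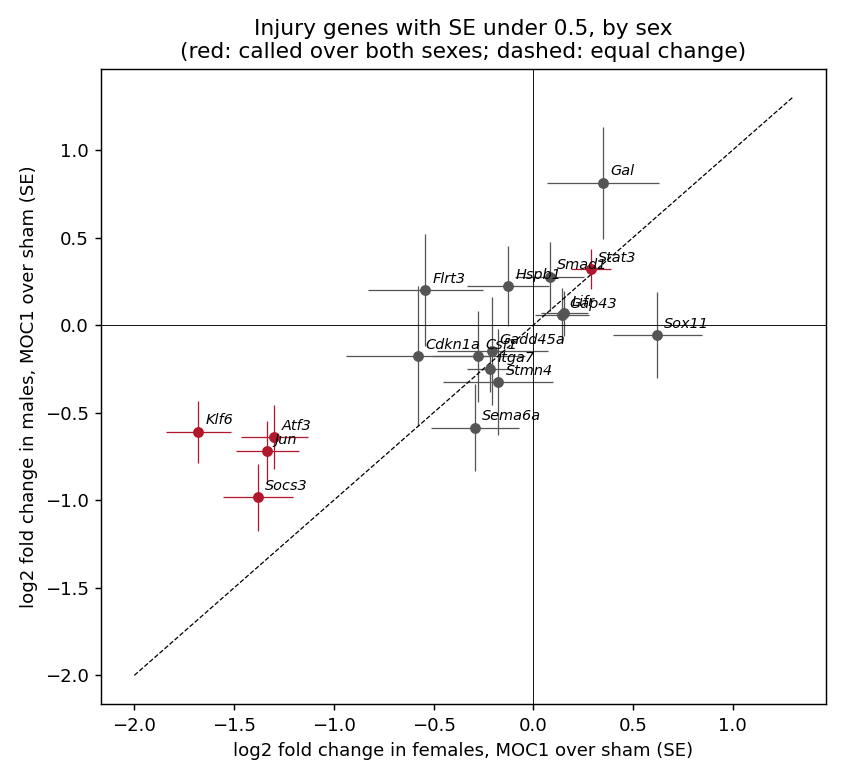
Log2 change of MOC1 over sham in females (x axis) and males (y axis) for the 18 tested genes with an SE under 0.5. Bars are SE, and the dashed line marks equal change. Klf6, Atf3, Jun and Socs3 lie above the line, most of all Klf6 (-1.68 against -0.61), though no difference between the sexes passed adjustment, and Stat3 lies near it.

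Other genes of the injury pathways were read from lists of names. For the list counts that follow, the shares over all genes tested were 2.34% higher and 4.28% lower in MOC1. In the list of DLK and JNK signalling, the kinase cascade that reports axon damage to Jun and Atf3, 2 of 14 rose and none fell (median log2 0.14). They were the JNK scaffolds Mapk8ip2 (0.30, SE 0.07, adjusted p = 0.00758) and Mapk8ip3 (0.27, SE 0.07, adjusted p = 0.0317). Map3k12, the kinase DLK itself, named outside the rule for called genes, stood at 94.9 CPM in sham and 102 CPM in MOC1 (log2 0.10, SE 0.09, adjusted p = 0.656). With pan-neuronal scaling neither scaffold was called (0.05 and 0.02).

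Of 18 tested genes of the gp130 and STAT pathway, 2 rose, the oncostatin M receptor Osmr (0.77, SE 0.13, adjusted p = 0.00105) and the kinase Jak1 (0.34, SE 0.08, adjusted p = 0.0105), and none fell (median -0.12). Osmr was still called with pan-neuronal scaling (0.51, adjusted p = 0.0360), whereas Jak1 was not (0.09). The shared receptor chain Il6st stood at 1107 CPM in sham and 1031 CPM in MOC1 (log2 -0.11, SE 0.08, adjusted p = 0.511).

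In the BMP and Smad list 3 of 20 fell and none rose (median -0.29). They were the activin receptor Acvr2a (-0.89, SE 0.16, adjusted p = 0.00157) and the BMP targets Id2 (-0.73, SE 0.15, adjusted p = 0.00534) and Id3 (-0.77, SE 0.18, adjusted p = 0.0105). All 3 were above 0 and not called with satellite glia scaling (0.12, 0.34 and 0.26), where the median of all genes was 1.04.

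Among 20 further genes of axon growth 3 rose and 2 fell (median 0.17). The risers were Anxa2, a phospholipid-binding protein (0.29, SE 0.06, adjusted p = 0.00303), the tubulin Tubb2b (0.41, SE 0.10, adjusted p = 0.0162) and the adhesion protein L1cam (0.22, SE 0.06, adjusted p = 0.0410). None of the 3 was called with pan-neuronal scaling, where L1cam stood at -0.03, and L1cam was not called with total-count scaling either (0.20, adjusted p = 0.0592). Ncam1, an adhesion protein of neurons and glia, fell by 0.61 (SE 0.07, adjusted p = 1.68e-05) and Marcks, a regulator of actin at the membrane, by 0.65 (SE 0.10, adjusted p = 5.06e-04). With satellite glia scaling both were called higher (0.45 and 0.39), but below the median of all genes there (1.04).

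Of 23 other injury-related factors 8 fell and 1 rose (median -0.43). The leading losses were Egr1 (-1.45, SE 0.16), which is also an immediate-early gene, Klf4, a relative of Klf6 that restrains axon growth (-1.54, SE 0.26), the metallothionein Mt1 (-1.17, SE 0.20) and the stress factor Cebpd (-1.28, SE 0.28). Serpina3n, a protease inhibitor, rose by 0.64 (SE 0.13, adjusted p = 0.00327), and stood at 0.40 with pan-neuronal scaling (adjusted p = 0.0525). Among 14 tested receptors and partners of the injury peptides, the cholecystokinin receptor Cckar was the 1 that rose, from 11.6 ± 3.01 CPM in sham (SD, n = 5) to 20.6 ± 5.33 CPM in MOC1 (SD, n = 6) (log2 0.83, SE 0.24, adjusted p = 0.0415), and none fell. It was not called with pan-neuronal scaling (0.58, adjusted p = 0.119), with limma's voom and quality weights (0.55, adjusted p = 0.142), or without sham female 1, MOC1 female 3 and MOC1 male 2 together (0.60, adjusted p = 0.155).

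Without those 3 libraries, 447 of all genes rose and 798 fell. The counts of genes that rose and fell were 2 and 0 for DLK and JNK signalling, 2 and 1 for the gp130 and STAT pathway, and 1 and 3 for the BMP and Smad list. They were 5 and 3 for axon growth genes, 2 and 6 for other injury factors, and 2 and 0 for peptide receptors. The 2 peptide receptors were Npy1r (0.78, adjusted p = 0.00880) and Npy2r (0.91, adjusted p = 0.0160), receptors of the Npy peptide, in place of Cckar. In that fit 13 of 16 satellite glia genes and 14 of 17 immediate-early genes fell.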

How the data were processed

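The deposited files hold the authors' raw counts of reads per gene, strand-specific and not normalized, per the labels and the whole-number values. The submitters' processing notes name Trimmomatic 0.35, STAR 2.7.1a, RSEM and the build GRCm38 (mm10). The 4 totals that name no gene held 18.7% to 21.5% of counts and were left out. They include reads mapped to several places, so genes with similar copies, such as Tubb6, Reg3b and Mt1, are uncertain.

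Counts were analysed with edgeR 4.0.16 in R 4.3.3 (filterByExpr on the 4 groups, TMM, quasi-likelihood F test, sex as a term, Benjamini-Hochberg over all 16817 genes kept, threshold 0.05). SE is the size of the log2 change over the square root of F. The tests were checked on simulated data with known changes. The test of MOC1 against sham recovered 23.9% of 1.5-fold, 49.3% of 2-fold and 69.7% of 4-fold changes. That of the difference between the sexes recovered 0%, 16.4% and 48.5%, so real changes of these sizes can go uncalled. Exon lengths came from GENCODE M21, whose gene positions matched for 54349 of 55401 genes, and promoters from RefSeq. Alternatives used DESeq2 1.42.0, limma 3.58.1, other scalings, filters and terms, and fewer libraries. No library pair within a group agreed within sampling noise (chi-square per degree of freedom 13.3 to 39.6).

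The genes, the 15 other lists and the tests were chosen with earlier results of these data known. By the rule for named genes, called genes, those with an unadjusted p under 0.05 and well-known injury markers get values for each library, and each pathway list up to 4 called genes in each direction. Binomial intervals and limits cover counting error only, and polymerase chain reaction copies were not told apart.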

Additional observations from a re-analysis of the deposited data

Results flagged for a closer look

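The level of each tested injury gene was screened within each arm for a library far from the others (56 groups of 5 or 6 libraries, of which chance flags about 1 in 20), and 7 values stood out. In sham female 2, Jun stood at 1113 CPM (other sham libraries 677 to 770), Socs3 at 314 CPM (190 to 221) and Fst at 4.21 CPM (0.735 to 1.59). In sham female 3, Stat3 stood at 426 CPM, below the 482 to 505 CPM of the others. In sham male 1, Cckbr stood at 3.31 CPM and Ecel1 at 8.21 CPM, where the other sham libraries held 0 CPM of Cckbr and at most 1.66 CPM of Ecel1. In MOC1 female 3, Dusp14 was at 0 CPM, where the other MOC1 libraries held 2.83 to 4.47 CPM. Without sham female 2 the log2 changes of Jun and Socs3 were -0.92 and -1.07, and both were still called.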

How the results depend on the processing

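Of 16817 genes tested, 1113 were called in MOC1 against sham, 753 in females, 211 in males and 0 in the test of the difference between the sexes (708 at an unadjusted p under 0.05). Leaving out each library in turn gave 816 to 1129, 345 to 876, 62 to 340 and 0 to 2 genes. The count in females moved most without MOC1 female 2 (345), sham female 2 (411) or MOC1 female 3 (448), and that in males without sham male 3 (62), MOC1 male 3 (81), sham male 1 (91), MOC1 male 1 (99) or MOC1 female 3 (340). Without the low-count filter 1316 genes were called in females, 469 in males and 53 in the difference. Pan-neuronal scaling gave 1906 genes, and 1710 in females. Satellite glia scaling gave 9961 genes, 8553 in females, 7524 in males and 2 in the difference, and a glial term gave 0. Of the injury genes, 5 were called, 4 to 5 with a library left out (Stat3 lost without sham male 3), 14 with satellite glia scaling and 0 with the glial term. Satellite glia scaling moved the median log2 change of all genes from -0.03 to 1.04. With it 11 log2 changes of the injury genes turned from below to above 0. Atf3 (0.0943) was called before, and Csf1 (0.85), Flrt3 (0.81), Gadd45a (0.92), Itga7 (0.84), Sema6a (0.63) and Stmn4 (0.83) were called there, whereas Cdkn1a (0.64), Plaur (0.90), Tnfrsf12a (0.27) and Tubb6 (0.88) were called in neither. With the glial term Stat3 stood at -0.018. Of the 23 genes not called, 16 changed sign in at least 1 of 23 alternatives. The cause was not tested. Replicate numbers did not pair the libraries (r -0.04 to 0.05 over 15 same-number pairs), and with a replicate block 1090 genes and the same number of injury genes, 5, were called. Of the named pathway genes, Cckar (adjusted p = 0.0760) and L1cam (adjusted p = 0.0505) were not called with it. Of the 28 tested genes, the 10 with an SE of 0.5 or more had no library above 16 CPM. The part of depth in their wide SE was not tested. MOC1 female 3 held 0 CPM of Plaur and Dusp14, where the other MOC1 libraries held 6.03 to 13.4 and 2.83 to 4.47 CPM.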

Other observations

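Peaks of the injury genes were spread over few libraries, a pattern noticed after the values were seen and given without a test. The 33 genes with reads include Npy, Vip, Crh, Reg3b and Arg1, which were not tested, whereas the shares over all genes cover tested genes only. Among the 33, sham female 2 was the highest library for 7 (Atf3, Csf1, Flrt3, Gadd45a, Jun, Klf6 and Socs3), or 21.2%, against 9.85% over all genes tested. Sham male 1 was the highest for 7 others (Ecel1, Itga7, Npy, Sema6a, Sox11, Sprr1a and Stmn4), or 21.2%, against 4.13%. Shares nearer to that of all genes were found in sham female 1, the highest for 6 (Anxa1, Cdkn1a, Hspb1, Rab32, Tnfrsf12a and Tubb6; 18.2% against 11.7%), and in MOC1 male 2, the highest for 5 (Cckbr, Dusp14, Fst, Gal and Vip; 15.2% against 12.4%). MOC1 female 3 was the highest for 2 (Lifr and Stat3), or 6.06%, against 17%.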
